A study of Mus musculus with 16 samples.

Results

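The complement system was examined through 32 of its genes among the 22612 genes of a liver RNA sequencing series from mice on 4 diets. The 32 genes were taken by symbol, and all 32 were found under 1 Ensembl identifier each. They were set in 3 classes by the cell that chiefly makes them in the liver. The hepatocyte class held 22 genes, the macrophage class held 7 (C1qa, C1qb, C1qc, Cfp, Fcna, C3ar1 and C5ar1), and C7, Cd55 and Cr1l were put in neither.

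All livers came from male C57BL/6 mice bought at 7 weeks of age, fed for 16 weeks after a week of acclimation and sampled after a night without food. Ketogenic-alternating mice switched every 2 weeks between the high-fat diet (58% of energy from fat) and a ketogenic diet (90.5%). Chow-alternating mice switched between the high-fat diet and chow (11%) at the same interval. The high-fat group had the high-fat diet throughout, and the chow group had chow throughout. Each group had 4 libraries of the 6 mice per group that the design text names. Neither the last diet of the alternating mice nor the number of animals behind a library is labelled, so the p-values cover no more than sample-to-sample spread, which may be technical. The values are TPM, a transcript level corrected for length that sums to 1000000 in each library. Sequencing depth is therefore unknown.

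Complement is a set of plasma proteins and receptors that tags microbes and debris for uptake and can punch holes in membranes. The classical pathway starts with C1q bound to antibody or debris, the lectin pathway with mannose-binding lectins or ficolins bound to sugars, and the alternative pathway runs on C3 itself. All 3 meet at the cleavage of C3, and the later components C5 to C9 assemble the membrane attack complex. The liver is the main source of the plasma components, mostly through hepatocytes, whereas C1q, properdin and ficolin A come from macrophages, in the liver the resident Kupffer cells.

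The liver label was checked against hepatocyte markers. Albumin had 44460 to 77890 TPM, and the 9 hepatocyte markers summed to between 9.14% and 13.9% of each library's TPM. Libraries differed in composition as well as in diet. The 20 highest genes took 27.1% to 29.5% of TPM in ketogenic-alternating, 29.8% to 31.5% in chow-alternating, 30.0% to 34.3% in high-fat and 29.0% to 38.8% in chow libraries. The share was over 33% in 4 libraries, high-fat replicates 1 and 2 and chow replicates 2 and 3. The median gene stood at a log2 fold change of 0.21 in ketogenic-alternating against high-fat, 0.19 against chow-alternating and 0.15 against chow, at 0.02 in chow-alternating against high-fat, -0.05 in high-fat against chow and -0.04 in chow-alternating against chow. Median-of-ratios scaling, which sets the typical gene to be equal, brought the first 3 medians to 0.00, 0.01 and 0.00, as it does by construction, and what lay behind the shift was not tested. A pair of libraries lay at the edge of their groups in macrophage genes. Ketogenic-alternating replicate 4 was the lowest of its group and chow replicate 1 the highest of its group in the summed macrophage class and in the summed Kupffer cell markers.

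Complement transcripts were abundant in these livers, and 19 of the 32 genes averaged at least 100 TPM over the 16 libraries. Vtn, which encodes vitronectin, an inhibitor of membrane attack, was the highest at a mean of 2052 TPM. C3, the hub of the cascade, followed at 1790 TPM, the chaperone and membrane attack inhibitor Clu at 1292 TPM and Serping1, the C1 inhibitor, at 684 TPM. The lowest means were those of the anaphylatoxin receptors C5ar1 (0.658 TPM) and C3ar1 (0.972 TPM) and of C7 (1.20 TPM), a membrane attack component. The 22 hepatocyte-made genes together held 10618 ± 788 TPM in ketogenic-alternating, 11877 ± 441 in chow-alternating, 11059 ± 1447 in high-fat and 10742 ± 1715 in chow livers (SD, n = 4 each). Group ranges overlapped except that every ketogenic-alternating library lay below every chow-alternating library.

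Of the 30 complement genes tested in ketogenic-alternating against chow livers, C4bp rose and Mbl2 fell, where 3.67% of all genes tested rose and 1.33% fell. Here a gene had changed when limma, run on log2(TPM + 1) for the genes that reached 1 TPM in 4 or more of the 8 libraries, gave a Benjamini-Hochberg adjusted p below 0.05. Fold changes are on that log2 scale. None changed in the other 5 comparisons. The share of all genes that changed was 0.0360% in ketogenic-alternating against high-fat, 0.0459% in chow-alternating against high-fat, 1.06% in high-fat against chow, 5.04% in ketogenic-alternating against chow-alternating and 1.16% in chow-alternating against chow. At an unadjusted p below 0.05, limma gave 2 of 31 complement genes in ketogenic-alternating against high-fat, Fcna higher (9.11% of all genes) and C9 lower (0.936%). In the same order it gave 1 of 29 (4.15% of all genes), 6 of 29 (11.6%), 8 of 29 (29.0%) and 5 of 29 (12.3%) in the other comparisons, and 12 of 30 (22.2%) in ketogenic-alternating against chow. The limma F test for any difference among the 4 diets was passed by 2 of 31 complement genes, again C4bp and Mbl2, and by 3.87% of all genes. C5ar1 was too low to be tested in any comparison.

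C4bp encodes the C4b-binding protein, a plasma inhibitor that speeds the decay of the classical and lectin C3 convertase. The gene (ENSMUSG00000026405) lies on the minus strand of chromosome 1, 130634773 to 130661632 on mm10. It had 302, 267, 316 and 243 TPM in ketogenic-alternating, 339, 251, 280 and 283 in chow-alternating, 232, 302, 331 and 329 in high-fat, and 227, 169, 132 and 181 in chow libraries. Every chow library was therefore below every library of the 3 groups that ate the high-fat diet. Means were 282 ± 33.3 TPM in ketogenic-alternating and 177 ± 39.0 TPM in chow livers (SD, n = 4 each), a log2 fold change of 0.69 (SE 0.169, limma adjusted p = 0.041). Against the same chow libraries, chow-alternating livers (288 ± 36.9 TPM) gave 0.72 (SE 0.165, limma adjusted p = 0.0695) and high-fat livers (298 ± 46.3 TPM) gave 0.76 (SE 0.195, limma adjusted p = 0.12). These 3 comparisons share their chow libraries. Both of the last comparisons passed in a fit of all 16 libraries, at adjusted p = 0.0429 and 0.0154 in limma. In the F test C4bp had F = 9.86 and an adjusted p of 0.0224 in limma, and that call ended without any 1 of chow replicates 2, 3 and 4 and without the libraries over 33% in 20 genes. The call in ketogenic-alternating livers was lost without any 1 of ketogenic-alternating replicates 1, 2 and 3 or chow replicates 2, 3 and 4, with limma adjusted p of 0.0668 to 0.134. It was also lost with no filter on low values (limma adjusted p = 0.0873), with no intensity trend (0.0604) and without the libraries over 33% in 20 genes (0.196, log2 fold change 0.47).

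**Figure D1:**
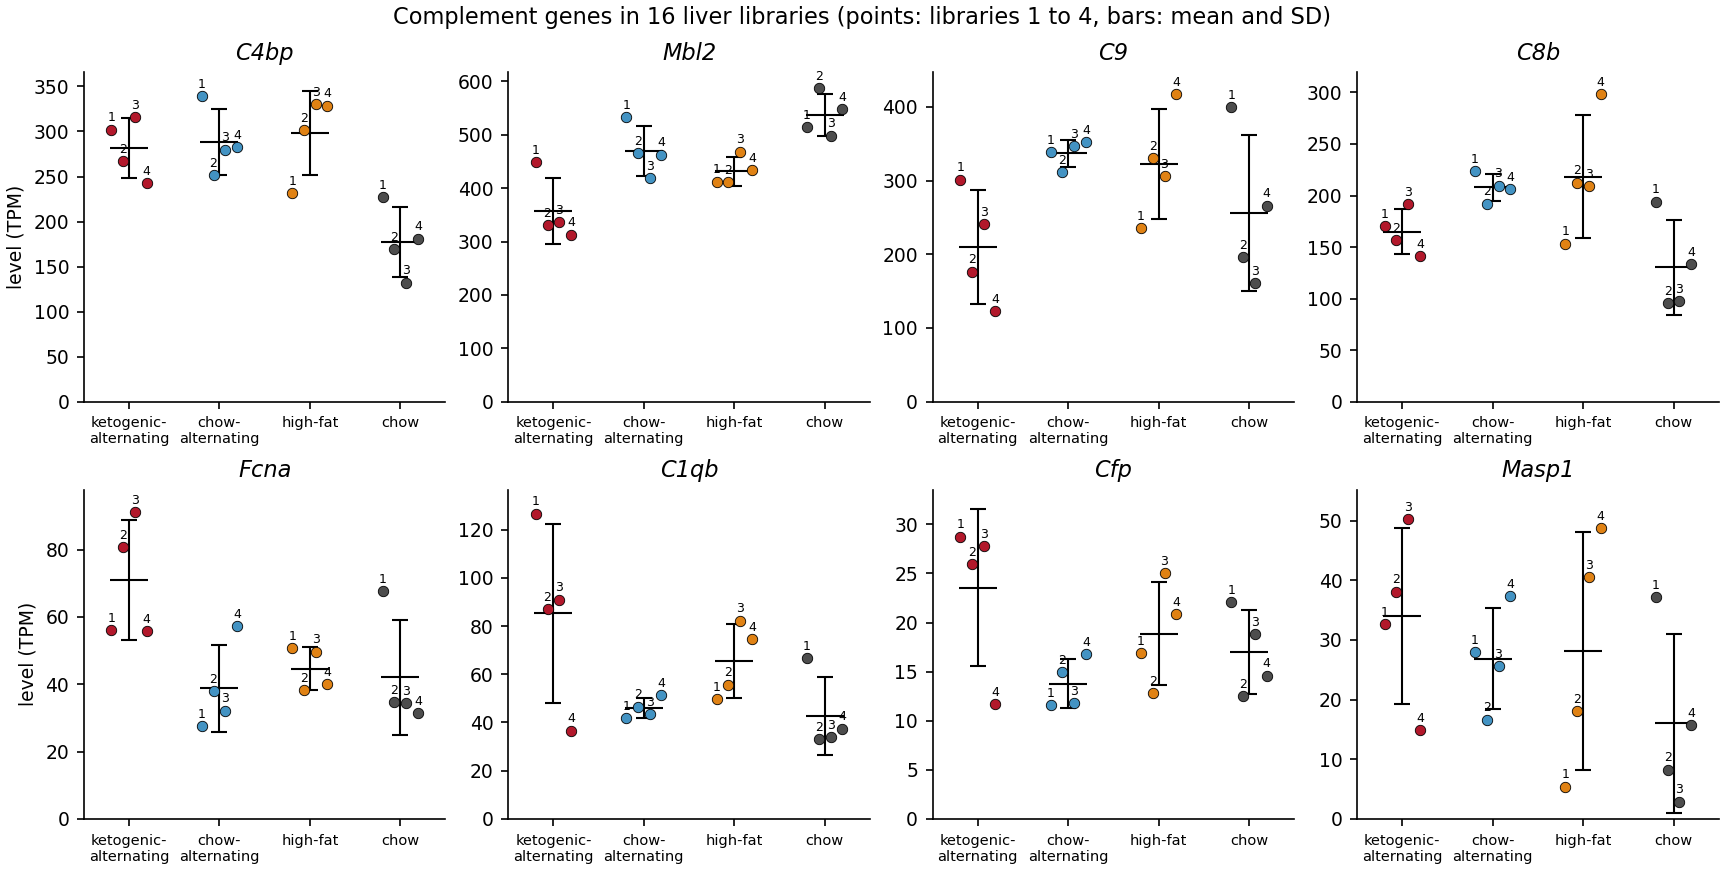
Levels in TPM (vertical axes, from 0) of 8 complement genes in the 4 diet groups, with 1 numbered point per library and bars for the mean and SD of 4 libraries. C4bp is at or above 232 TPM in all libraries of the other groups and at or below 227 TPM in chow libraries, Mbl2 is lowest in ketogenic-alternating livers (357 ± 61.9 TPM), and Masp1 ranges from 2.90 to 50.3 TPM.

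Mbl2 encodes mannose-binding lectin C, a sugar-binding protein that starts the lectin pathway. The gene (ENSMUSG00000024863) lies on the plus strand of chromosome 19, 30232942 to 30239687. It had 449, 331, 337 and 313 TPM in ketogenic-alternating, 533, 466, 419 and 463 in chow-alternating, 412, 411, 468 and 433 in high-fat, and 514, 588, 499 and 548 in chow libraries. All ketogenic-alternating and all high-fat libraries were below all chow libraries, while the chow-alternating range overlapped that of chow. Mbl2 fell to 357 ± 61.9 TPM in ketogenic-alternating livers, against 537 ± 39.7 TPM in chow livers (SD, n = 4 each), a log2 fold change of -0.60 (SE 0.141, limma adjusted p = 0.0332). High-fat livers, at 431 ± 26.6 TPM, gave -0.31 against chow (SE 0.140, limma adjusted p = 0.414). Chow-alternating livers averaged 470 ± 47.0 TPM, and ketogenic-alternating against chow-alternating gave -0.40 (SE 0.123, limma adjusted p = 0.0775). In the F test Mbl2 had F = 8.17 and a limma adjusted p of 0.0403, a call that ended with no intensity trend, without the libraries over 33%, and without any 1 of ketogenic-alternating replicates 2, 3 and 4, any chow-alternating replicate, high-fat replicate 4 or chow replicates 2, 3 and 4. The call against chow was lost without any 1 of ketogenic-alternating replicates 2, 3 and 4 or chow replicates 2 and 4 (limma adjusted p of 0.069 to 0.122). It was also lost with no filter on low values (limma adjusted p = 0.0614), with no intensity trend (0.0555) and without the libraries over 33% in 20 genes (0.128, log2 fold change -0.58).

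The promoters of the 2 changed genes are given because they lie upstream of the genes among the 32 that passed a test. RefSeq windows on GRCm38.p6 were found for 24 of the 32 genes, and 6 short motifs were searched on both strands. The bases printed end just before the RefSeq start or the outermost annotated start, whichever comes first on the gene's strand, and run 5' to 3' on that strand. In Mbl2 they end at the RefSeq start, which lies upstream of the gene start given above. Lower case is used, with capitals for a match to the HNF1 motif GTTAATNAT, HNF1 being a homeodomain factor of hepatocytes. The C4bp bases are chr1:130661633-130661868 and those of Mbl2 are chr19:30232678-30232927. Stretches around the HNF1 match are shown beside them for Cfhr2 (chr1:139858776-139858834) and Hc (chr2:35061456-35061514), the other complement genes with a match.
C4bp: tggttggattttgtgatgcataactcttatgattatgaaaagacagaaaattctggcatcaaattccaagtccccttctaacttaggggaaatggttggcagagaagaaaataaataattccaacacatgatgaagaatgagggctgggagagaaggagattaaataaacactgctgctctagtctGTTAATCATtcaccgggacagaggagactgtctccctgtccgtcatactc
Mbl2: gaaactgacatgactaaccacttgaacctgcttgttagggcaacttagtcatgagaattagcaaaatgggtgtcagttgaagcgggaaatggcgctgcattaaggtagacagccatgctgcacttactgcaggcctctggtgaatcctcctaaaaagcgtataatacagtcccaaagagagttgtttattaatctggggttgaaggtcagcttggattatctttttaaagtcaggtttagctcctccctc
Cfhr2: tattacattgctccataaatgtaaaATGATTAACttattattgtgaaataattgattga
Hc: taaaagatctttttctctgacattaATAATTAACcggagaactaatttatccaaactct

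The HNF1 match of C4bp begins 50 bases before its start, that of Hc 51 bases and that of Cfhr2 107 bases before. The motif was found in 3 of 24 complement windows and in 0.801% of all 32851 RefSeq windows of the same 300 bases. None of the 6 motifs was found in the Mbl2 window. The C/EBP motif TTGCNNAA was in the windows of C1ra, C1s1, C3 and C9, as in 10.8% of all windows. The interferon motif GAAANNGAA was in those of C5ar1, C7 and Vtn (8.56% of all) and the PU.1 motif GAGGAAGT in that of C1qc (3.20% of all). The NF-kappa B letters GGGACTTTC (0.353% of all) and the HNF4 letters TGACCTTTG (0.478% of all) were in none of the 24. A match is a description of the letters and not of binding. C4bp, Hc and Cfhr2 share the HNF1 letters but not a pattern across diets. In ketogenic-alternating against chow livers, C4bp and Hc gave 0.69 and 0.63, while every ketogenic-alternating library of Cfhr2 was below every chow library.

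The recognition subunits of the classical pathway, C1qa, C1qb and C1qc, were high in 3 of the 4 ketogenic-alternating libraries and low in the other. The 3 genes stand side by side within 20 kb of chromosome 4 in the order C1qb, C1qc, C1qa, with 3616 and 2851 bases between neighbours, and their chains assemble into 1 molecule. C1qa (ENSMUSG00000036887, chromosome 4, 136895917 to 136898803) had 135, 90.9, 99.8 and 42.5 TPM in ketogenic-alternating, 49.3, 66.9, 52.2 and 57.2 in chow-alternating, 55.1, 35.1, 88.1 and 78.4 in high-fat, and 78.0, 41.7, 47.0 and 45.4 in chow libraries. C1qb (ENSMUSG00000036905, chromosome 4, 136880129 to 136886187) had 127, 86.9, 90.9 and 36.6 TPM in ketogenic-alternating, 41.9, 46.6, 43.5 and 51.5 in chow-alternating, 49.7, 55.7, 82.3 and 74.5 in high-fat, and 66.7, 33.003, 33.9 and 37.5 in chow libraries. C1qc (ENSMUSG00000036896, chromosome 4, 136889804 to 136893065) had 94.0, 66.4, 72.3 and 28.3 TPM in ketogenic-alternating, 32.8, 43.6, 34.1 and 43.7 in chow-alternating, 40.4, 35.0, 67.2 and 55.4 in high-fat, and 52.6, 25.6, 31.5 and 29.5 in chow libraries. Ketogenic-alternating replicates 1 to 3 were above all other groups' libraries, except that C1qc in replicate 2 was below high-fat replicate 3. Replicate 4 was the lowest of its group in all 3 genes and lay within the chow range, so the groups overlapped. Against chow-alternating, the log2 fold changes were 0.59 for C1qa (SE 0.281, limma adjusted p = 0.187), 0.76 for C1qb (SE 0.295, limma adjusted p = 0.131) and 0.64 for C1qc (SE 0.297, limma adjusted p = 0.182). Without ketogenic-alternating replicate 4 they were 0.92, 1.11 and 0.99 and passed (limma adjusted p = 0.00929, 0.00527 and 0.00769). Without that library 2513 of 10917 genes changed, against 554 of 11002 with it, so many genes outside complement were gained as well. With all libraries, C1qa, C1qb and C1qc gave 0.48, 0.28 and 0.32 against high-fat (limma adjusted p = 0.527, 0.653 and 0.619). The median gene stood at 0.21 there. Against chow they gave 0.72, 0.91 and 0.82 (limma adjusted p = 0.207, 0.151 and 0.178).

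The C1q chains varied together, and their ratios moved less than their levels, which varied almost 4 times. The ratio of the highest to the lowest library was 3.84 for C1qa and for C1qb and 3.68 for C1qc. The ratio of C1qa to C1qb lay between 1.05 and 1.44 in 15 libraries and was 0.630 in high-fat replicate 2. It was 1.05 to 1.16 in ketogenic-alternating and 0.630 to 1.11 in high-fat libraries, below the 1.17 to 1.39 of chow libraries. The ratio of C1qa to C1qc ran from 1.00, again in high-fat replicate 2, to 1.63. Across the 16 libraries C1qa correlated with C1qb at Pearson r = 0.897 (permutation p = 2e-05, adjusted p = 6e-05; Spearman rho = 0.85, permutation p = 3e-05, adjusted p = 9e-05). With C1qc, r was 0.958 (permutation p = 1e-05, which no draw of this size can go below, adjusted p = 6e-05; rho = 0.932, permutation p = 1e-05, adjusted p = 6e-05). Without ketogenic-alternating replicates 1 and 3, the 2 farthest from the median, r was 0.815 and 0.926, and for deviations from the group means it was 0.91 and 0.97. A correlation of the same size was found with Clec4f, a lectin of Kupffer cells (r = 0.846, permutation p = 6e-05, adjusted p = 1.2e-04; rho = 0.812, permutation p = 2.1e-04, adjusted p = 4.2e-04; r = 0.779 without the same 2 libraries and 0.84 for deviations). These were 3 of 6 relations computed, adjusted together, and all share the libraries and the fixed sum of TPM.

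**Figure D2:**
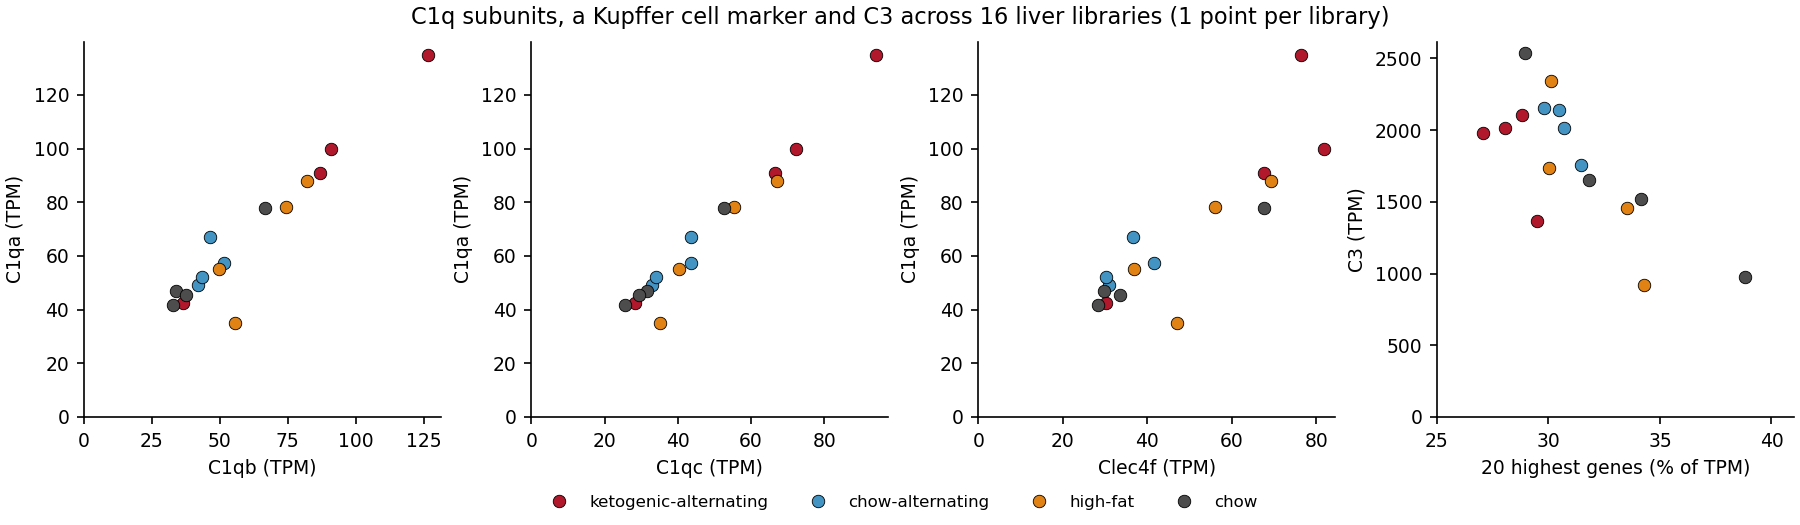
Each point is 1 of 16 libraries, coloured by diet. The first 3 panels plot C1qa against C1qb, C1qc and Clec4f in TPM (r = 0.897, 0.958 and 0.846), with high-fat replicate 2 off the C1qa to C1qb line, and the last plots C3 in TPM against the percentage of TPM in the 20 highest genes (r = -0.779).

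The other early classical components, made by hepatocytes, showed smaller spreads. The C1 proteases C1ra and C1s1 averaged 142 and 264 TPM over the 16 libraries, and C2, the protease of the C3 convertase, 59.4 TPM. C1ra had 138, 135, 144 and 127 TPM in ketogenic-alternating against 160, 152, 149 and 147 TPM in chow-alternating libraries, which do not overlap, at a limma adjusted p of 0.187. C2 had 72.3, 65.9, 63.7 and 64.3 TPM in chow-alternating against 58.7, 54.6, 39.4 and 55.5 TPM in chow libraries, again apart, at a limma adjusted p of 0.311. C4b, the component that covalently tags surfaces, averaged 385 ± 74.5 TPM in ketogenic-alternating, 377 ± 49.3 in chow-alternating and 407 ± 110 in high-fat, against 255 ± 74.5 TPM in chow livers (SD, n = 4 each). Its log2 fold changes against the shared chow libraries were 0.62 (SE 0.199, limma adjusted p = 0.103), 0.60 (SE 0.180, limma adjusted p = 0.173) and 0.68 (SE 0.238, limma adjusted p = 0.269). Without chow replicate 1, the highest chow library of C4b at 365 TPM, the first 2 passed at 0.80 and 0.78 (limma adjusted p = 0.0111 and 0.0157). Mouse C4b has a near-identical neighbour, C4a, not analysed here, so its level may hold reads of both. C1ra and C1s1 also have close paralogs, and the split of their reads is an estimate.

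In the lectin pathway, Mbl1, the second mannose-binding lectin, did not share the pattern of Mbl2. Its means were 208 ± 25.2 TPM in ketogenic-alternating, 197 ± 17.6 in chow-alternating, 201.4 ± 26.5 in high-fat and 193 ± 22.7 in chow livers (SD, n = 4 each), and its smallest limma adjusted p over the 6 comparisons was 0.655. Fcna encodes ficolin A, a lectin of macrophages that binds acetylated sugars (ENSMUSG00000026938, chromosome 2, 25624666 to 25628030). It had 56.2, 80.6, 91.2 and 55.7 TPM in ketogenic-alternating, 27.6, 37.9, 32.2 and 57.2 in chow-alternating, 50.6, 38.3, 49.7 and 40.1 in high-fat, and 67.7, 34.7, 34.3 and 31.3 in chow libraries. All ketogenic-alternating libraries were above all high-fat libraries, while chow-alternating replicate 4 and chow replicate 1 lay within the ketogenic-alternating range. Log2 fold changes were 0.88 against chow-alternating (SE 0.226, limma adjusted p = 0.0513), 0.63 against high-fat (SE 0.191, limma adjusted p = 0.486) and 0.78 against chow (SE 0.250, limma adjusted p = 0.101). Against chow-alternating it passed without ketogenic-alternating replicate 4 (0.98, limma adjusted p = 0.0238) or chow-alternating replicate 4 (1.08, limma adjusted p = 0.0231), and against chow without chow replicate 1 (1.03, limma adjusted p = 0.00768).

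Masp1, a serine protease that activates lectin complexes, had the largest ratio of its highest to its lowest library, 17.3, of the genes that averaged at least 5 TPM. The gene (ENSMUSG00000022887, chromosome 16, 23449417 to 23520815) had 32.7, 38.1, 50.3 and 14.9 TPM in ketogenic-alternating, 27.9, 16.6, 25.6 and 37.4 in chow-alternating, 5.39, 18.02, 40.5 and 48.7 in high-fat, and 37.2, 8.26, 2.90 and 15.7 in chow libraries. Its lowest values, in chow replicates 3 and 2 and high-fat replicate 1, fell in libraries with over 33% of TPM in 20 genes, and the part of that composition in them was not tested. The log2 fold change of ketogenic-alternating against chow was 1.39 (SE 0.581, limma adjusted p = 0.193), 1.93 without chow replicate 1 (limma adjusted p = 0.0227) and 0.35 without the libraries over 33% (limma adjusted p = 0.802). Against high-fat it was 0.52 (SE 0.564, limma adjusted p = 0.632) and turned to -0.50 without the libraries over 33%. High-fat against chow gave 0.86 (SE 0.717, limma adjusted p = 0.742).

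Masp2, the protease that cleaves C4 and C2, was steadier, at 165 ± 12.1 TPM in ketogenic-alternating, 182 ± 9.91 in chow-alternating and 184 ± 7.74 in high-fat, against 148 ± 14.4 TPM in chow livers (SD, n = 4 each). The chow-alternating and the high-fat ranges did not overlap that of chow (limma adjusted p = 0.295 and 0.411). The gene (ENSMUSG00000028979, chromosome 4, 148602554 to 148615499) is known to give both the protease and a truncated product without the protease domain. The deposited transcript values split it mainly between a long transcript (ENSMUST00000052060) of 3058 bases and 685 codons and a short one (ENSMUST00000105701) of 738 bases and 185 codons. The long transcript had 96.0, 98.4, 92.4 and 85.3 TPM in ketogenic-alternating, 82.3, 64.3, 75.3 and 81.8 in chow-alternating, 80.1, 86.3, 120.5 and 98.5 in high-fat, and 60.7, 58.7, 34.8 and 57.4 in chow libraries. Every chow library lay below every library of the other groups. The short transcript had 50.4, 57.7, 51.8 and 64.4 TPM in ketogenic-alternating, 69.2, 84.2, 73.0 and 77.0 in chow-alternating, 102, 79.0, 68.6 and 66.1 in high-fat, and 58.1, 85.7, 86.4 and 70.6 in chow libraries. Its ketogenic-alternating values were all below the chow-alternating and high-fat values.

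The long transcript thus made up 56.7 ± 5.57% of Masp2 TPM in ketogenic-alternating, 41.9 ± 5.69% in chow-alternating, 52.2 ± 8.92% in high-fat and 35.7 ± 7.79% in chow livers (SD, n = 4 each). The ketogenic-alternating range, 52.2% to 64.3%, lay above the chow-alternating range, 33.4% to 45.3%, and above the chow range, 24.98% to 42.8%. The differences of means were 14.9 and 21.0 percentage points. These shares were chosen after their values were seen and are given without a test. The division of reads between transcripts is an estimate, and the lowest share, 24.98%, was in chow replicate 3, the library with the highest share of TPM in 20 genes. The part of library composition in the shares was not tested.

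**Figure D3:**
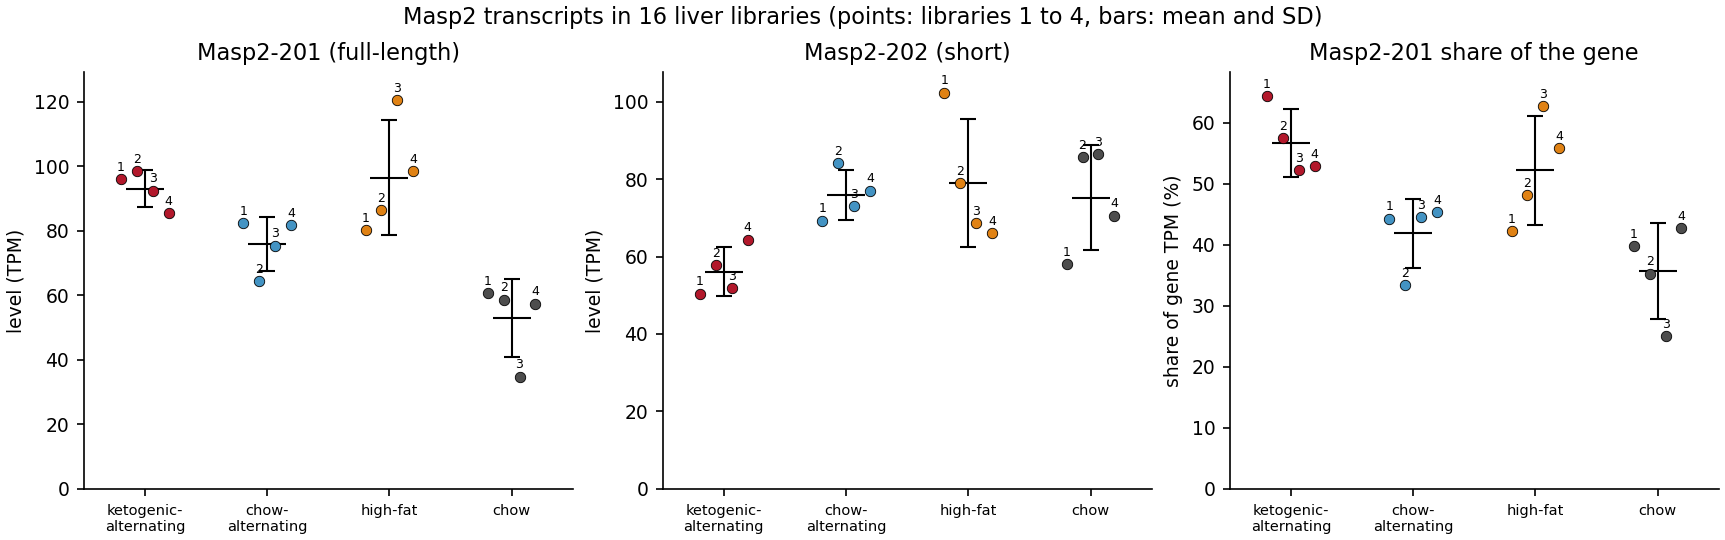
Levels in TPM of the long and the short Masp2 transcript and the long transcript's percentage of the gene, with 1 numbered point per library and bars for the mean and SD of 4 libraries. The long transcript is at or above 64.3 TPM in every library of the other groups and at or below 60.7 TPM in chow libraries, and its share is 56.7 ± 5.57% in ketogenic-alternating and 35.7 ± 7.79% in chow livers.

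C3, cleaved by all 3 pathways, varied more within than between groups. The gene (ENSMUSG00000024164, chromosome 17, 57203970 to 57228136) had 1979, 2011, 2102 and 1363 TPM in ketogenic-alternating, 2151, 1753, 2011 and 2140 in chow-alternating, 917, 1458, 2341 and 1738 in high-fat, and 2534, 1521, 976 and 1653 in chow libraries. The lowest and the highest library each belonged to the high-fat or chow group, and the largest log2 fold change was 0.39 in chow-alternating against high-fat (SE 0.2385, limma adjusted p = 1). It was -0.01 without the libraries over 33% in 20 genes. C3 was lower where the 20 highest genes took more of the library, with r = -0.779 (permutation p = 5.7e-04, adjusted p = 8.55e-04; rho = -0.597, permutation p = 0.016, adjusted p = 0.02). This r was -0.55 without chow replicate 3 and high-fat replicate 1 and -0.88 for deviations from the group means. C1qa also moved with that share (r = -0.654, permutation p = 0.0055, adjusted p = 0.0066; rho = -0.688, permutation p = 0.0042, adjusted p = 0.0063; r = -0.792 without the same 2 libraries and -0.54 for deviations). Median-of-ratios scaling weakened this relation of C1qa, and leaving out the libraries over 33% weakened that of C3 to the share. Between C1qa and C3, r was 0.516 (permutation p = 0.041, adjusted p = 0.041; rho = 0.547, permutation p = 0.031, adjusted p = 0.031; r = 0.615 without those 2 and 0.58 for deviations). It was 0.160 under median-of-ratios scaling (permutation p = 0.55) and 0.45 without the libraries over 33% (permutation p = 0.14). Neither p was below 0.05, but the second r was near that of all libraries and came from fewer libraries. TPM has a fixed sum, so some of these relations is built in.

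None of the other hepatocyte-made genes of the alternative pathway changed. Cfb, the protease of the alternative C3 convertase, had 609, 603, 629 and 588 TPM in ketogenic-alternating against 683, 658, 682 and 670 TPM in chow-alternating libraries, apart but at a limma adjusted p of 0.194. The high-fat (534 to 682 TPM) and chow (527 to 785 TPM) ranges of Cfb overlapped both. Cfi, the protease that inactivates C3b and C4b, averaged 445 ± 38.0, 493 ± 34.4, 462 ± 127 and 412 ± 96.1 TPM in ketogenic-alternating, chow-alternating, high-fat and chow livers (SD, n = 4 each). Cfhr2, a factor H-related protein, had 508, 471, 545 and 511 TPM in ketogenic-alternating, 575, 582, 636 and 627 in chow-alternating, and 717, 591, 562 and 640 in chow libraries. Its ketogenic-alternating range lay below the chow-alternating and chow ranges, with a log2 fold change of -0.25 against chow-alternating (SE 0.081, limma adjusted p = 0.0895). High-fat libraries, at 452, 616, 505 and 539 TPM, overlapped the ketogenic-alternating range. Ketogenic-alternating against high-fat gave -0.05 for Cfhr2 (limma adjusted p = 0.865). Cfb and C2 lie 85 bases apart on chromosome 17, and reads near their border could be counted for either.

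Cfp encodes properdin, which stabilises the alternative convertase and comes from myeloid cells (ENSMUSG00000001128, chromosome X, 20925454 to 20931555). It had 28.7, 25.9, 27.8 and 11.7 TPM in ketogenic-alternating, 11.6, 15.0, 11.8 and 16.8 in chow-alternating, 16.9, 12.8, 25 and 20.8 in high-fat, and 22.05, 12.5, 18.8 and 14.6 in chow libraries. As for C1q, the first 3 ketogenic-alternating libraries were above all others, and replicate 4 was among the lowest. Ketogenic-alternating against chow-alternating gave a log2 fold change of 0.67 (SE 0.252, limma adjusted p = 0.121), and 0.96 without ketogenic-alternating replicate 4 (limma adjusted p = 0.00667). With that library left out, 23.0% of all genes changed, against 5.04% with all libraries.

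The membrane attack genes differed among themselves. C9, which forms the pore, showed the lowest fold change of the 32 genes in ketogenic-alternating against chow-alternating and against high-fat. The gene (ENSMUSG00000022149, chromosome 15, 6445327 to 6498751) had 301, 176, 241 and 123 TPM in ketogenic-alternating, 338, 311, 347 and 352 in chow-alternating, 236, 330, 306 and 417 in high-fat, and 400, 196, 161 and 266 in chow libraries. All ketogenic-alternating libraries lay below all chow-alternating ones, while the high-fat and chow ranges overlapped them. Log2 fold changes were -0.76 against chow-alternating (SE 0.223, limma adjusted p = 0.0714) and -0.66 against high-fat (SE 0.2625, limma adjusted p = 0.486). The first passed without ketogenic-alternating replicate 1 (-0.95, limma adjusted p = 0.025), where 3.14% of all genes changed. It also passed, at a smaller fold change, without replicate 4 (-0.52, limma adjusted p = 0.0422), where 23.0% of all genes changed. With all libraries 5.04% of all genes changed.

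C8 is a single protein of 3 chains from the genes C8a, C8b and C8g, whose levels were not in fixed proportion. C8b (ENSMUSG00000029656, chromosome 4, 104766317 to 104804548) had 170, 157, 192 and 141 TPM in ketogenic-alternating, 223, 192, 210 and 206 in chow-alternating, 153, 212, 209 and 298 in high-fat, and 194, 95.6, 97.7 and 133 in chow libraries. The ketogenic-alternating libraries were below the chow-alternating ones, with a gap of less than 1 TPM between the nearest. Log2 fold changes were -0.34 for ketogenic-alternating against chow-alternating (SE 0.103, limma adjusted p = 0.0781), 0.73 for chow-alternating against chow (SE 0.201, limma adjusted p = 0.136) and 0.76 for high-fat against chow (SE 0.258, limma adjusted p = 0.252). Without chow replicate 1 the second was 0.94 (limma adjusted p = 0.0112), where 2.25% of all genes changed, against 1.16% with all libraries. C8g averaged 549 ± 47.2 TPM in ketogenic-alternating, 609 ± 21.8 in chow-alternating and 566 ± 89.4 in high-fat, against 639 ± 14.7 TPM in chow livers, with all ketogenic-alternating below all chow libraries (limma adjusted p = 0.275). The ratio of C8g to C8b was 2.81 to 4.35 in ketogenic-alternating, 2.61 to 3.27 in chow-alternating, 1.81 to 4.49 in high-fat and 3.35 to 6.76 in chow libraries. C8a had a ratio to C8b of 1.56 to 1.97 in ketogenic-alternating, 1.30 to 1.46 in chow-alternating, 1.39 to 1.83 in high-fat and 1.72 to 2.17 in chow libraries. Over the 16 libraries, 21.55% and 15.9% of C8g TPM were assigned to a pair of transcripts with no coding sequence.

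Hc encodes C5, the source of the C5a peptide, and averaged 280 ± 55.1 TPM in ketogenic-alternating, 247 ± 7.35 in chow-alternating and 264 ± 73.9 in high-fat, against 189 ± 83.8 TPM in chow livers (SD, n = 4 each). Ketogenic-alternating against chow gave 0.63 (SE 0.257, limma adjusted p = 0.182), and 0.90 without chow replicate 1 (limma adjusted p = 0.0117). C6 ranged from 41.9 to 127 TPM with a smallest limma adjusted p of 0.443. C7 was at or under 1.36 TPM in 14 of the 16 libraries, and had 4.36 TPM in chow-alternating replicate 3 and 3.78 TPM in high-fat replicate 3. It could be tested in ketogenic-alternating against high-fat only (limma adjusted p = 0.713).

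Among the regulators other than C4bp, Serping1 averaged 675 ± 47.0, 712 ± 55.2, 721 ± 88.0 and 629 ± 46.1 TPM in ketogenic-alternating, chow-alternating, high-fat and chow livers (SD, n = 4 each). Vtn had 1815, 1695, 1734.5 and 2010 TPM in ketogenic-alternating against 2355, 2372, 2185 and 1967 TPM in chow-alternating libraries (limma adjusted p = 0.0938). Clu averaged 1259 ± 195, 1345 ± 55.8, 1278 ± 163 and 1284 ± 201.5 TPM in the same order of groups. Cr1l, the mouse regulator Crry that guards the cell's own surface against C3 and C4 fragments, had 42.8, 41.6, 35.8 and 36.5 TPM in ketogenic-alternating against 33.4, 29.8, 23.4 and 27.7 TPM in chow libraries. These did not overlap, with a log2 fold change of 0.45 (SE 0.145, limma adjusted p = 0.103), and 0.53 without chow replicate 1 (limma adjusted p = 0.0352). Cd55, decay-accelerating factor, ranged from 3.99 to 10.5 TPM and had a smallest limma adjusted p of 0.173.

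The receptors for the C3a and C5a peptides were near the detection limit. C3ar1 had 2.92, 1.06, 1.48 and 0.629 TPM in ketogenic-alternating, 0.817, 0.498, 0.803 and 0.639 in chow-alternating, 0.864, 0.748, 1.70 and 1.06 in high-fat, and 1.03, 0.266, 0.470 and 0.568 in chow libraries. C5ar1 had 2.95, 0.876, 1.36 and 0.469 TPM in ketogenic-alternating, 0.345, 0.293, 0.441 and 0.564 in chow-alternating, 0.259, 0.553, 0.543 and 0.593 in high-fat, and 0.492, 0.287, 0.232 and 0.274 in chow libraries. For both receptors the highest library of all was ketogenic-alternating replicate 1, and ketogenic-alternating replicate 4 lay within the range of the other groups.

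Set side by side, the macrophage-made and the hepatocyte-made genes stood on either side of the median gene in ketogenic-alternating against chow-alternating livers. There, the median log2 fold change was 0.67 over the 5 macrophage-made genes tested, all of them above 0, and -0.15 over the 22 hepatocyte-made genes, 5 of them above 0. The median over all genes tested was 0.19, with 79.5% above 0. Other hepatocyte genes were also low in this comparison, with medians of -0.21 over 9 hepatocyte markers (2 above 0), -0.12 over 19 coagulation genes (6 above 0) and -0.29 over 19 acute phase genes (3 above 0). The summed hepatocyte markers held 9.53% to 10.2% of TPM in ketogenic-alternating and 11.7% to 12.6% in chow-alternating libraries. Median-of-ratios scaling gave medians of 0.48 and -0.35, with 5 of 5 and 1 of 22 above 0. Against high-fat, the medians were 0.30 (6 of 6 above 0) and -0.07 (5 of 22), against 0.21 over all genes (83.0% above 0). The macrophage-made median there was 0.13, below the 0.16 of all genes, without ketogenic-alternating replicate 1, and 0.65 without its replicate 4. Against chow they were 0.75 (6 of 6) and 0.11 (14 of 22), against 0.15 over all genes (68.8% above 0), and median-of-ratios scaling turned the hepatocyte-made median to -0.06 (7 of 22). In chow-alternating against high-fat, the medians were -0.32 (0 of 5) and 0.09 (13 of 22), against 0.02 (54.7% above 0). In high-fat against chow they were 0.23 (5 of 5) and 0.17 (15 of 22), against -0.05 (41.4%), and in chow-alternating against chow 0.12 (3 of 5) and 0.26 (19 of 22), against -0.04 (42.8%). The members of a class share libraries and cell type, and these counts and medians are descriptions without a test. Without the libraries over 33% in 20 genes, 3 of 6 macrophage-made genes were above 0 in ketogenic-alternating against high-fat, with a median of 0.01. In chow-alternating against chow that change left 0 of 5 macrophage-made genes above 0, with a median of -0.13, and a hepatocyte-made median of 0.00.

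**Figure D4:**
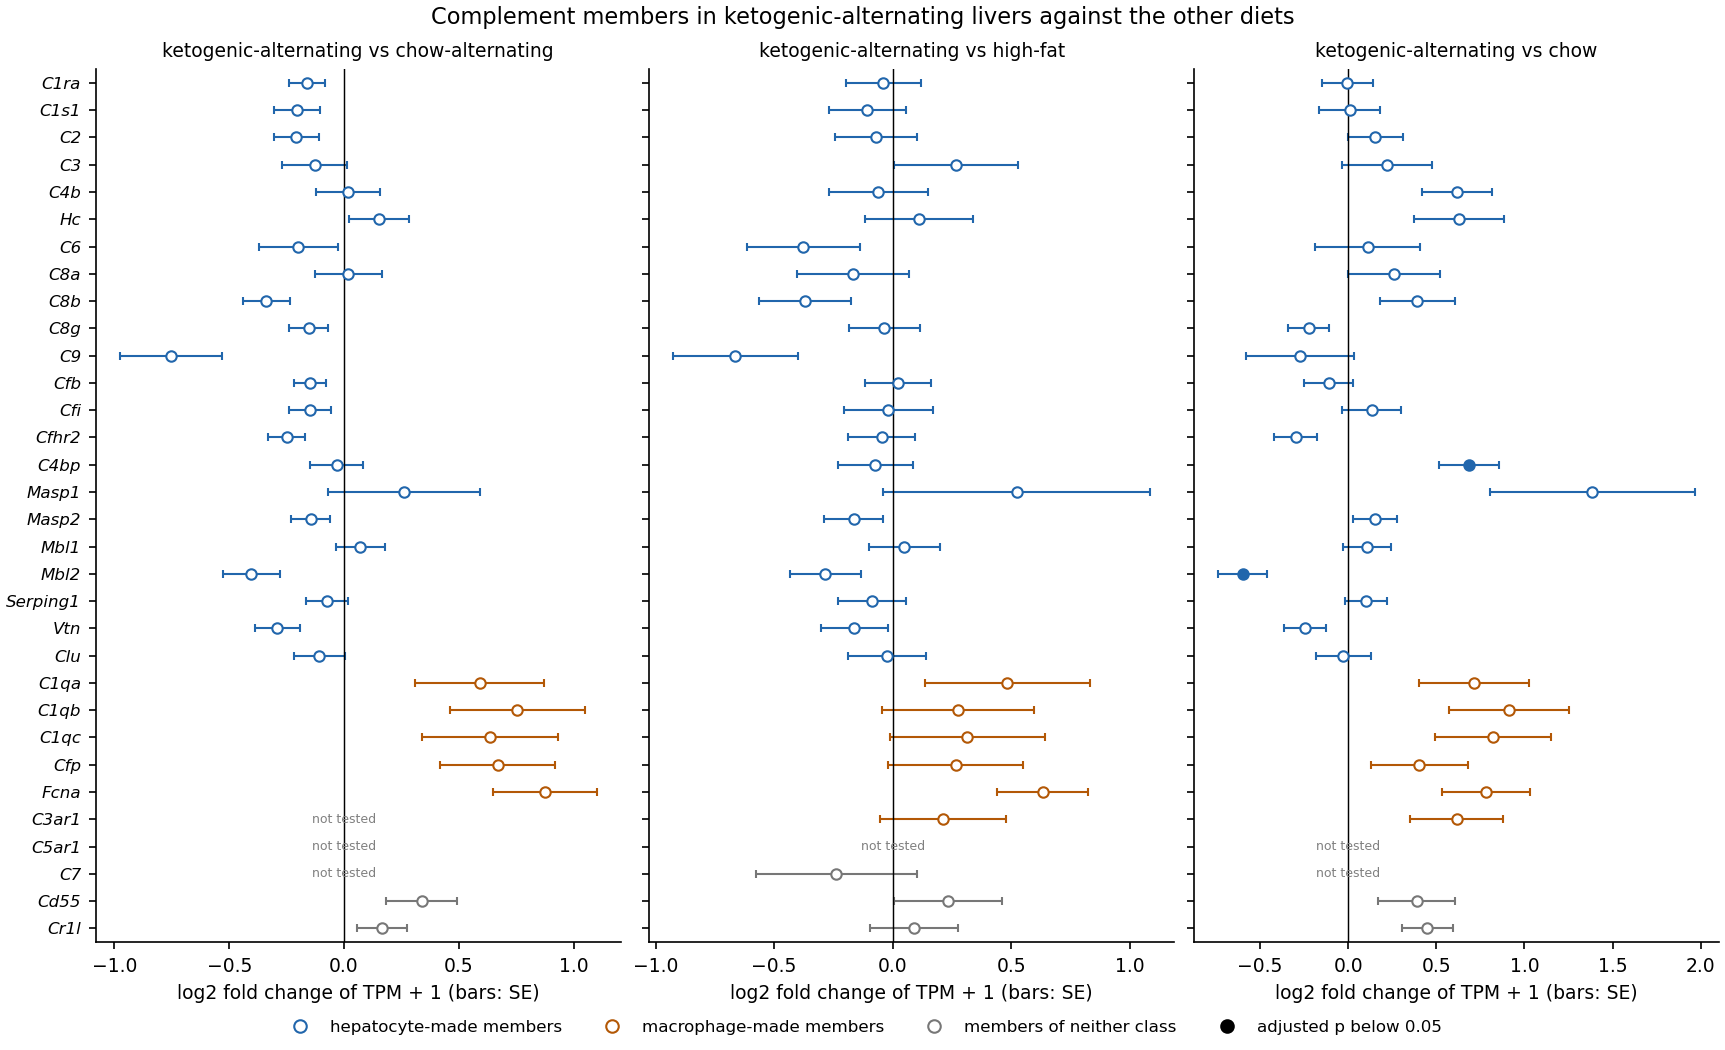
Log2 fold changes of TPM + 1 (horizontal axes, bars for the SE) of the complement genes in ketogenic-alternating livers against each other diet, coloured by class, with filled points at an adjusted p below 0.05. All macrophage-made genes tested lie above 0 in all 3 panels with every library in the fit, and only C4bp (0.69) and Mbl2 (-0.60) against chow are filled.

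Groups whose libraries did not overlap were found for 5 of 29 complement genes in ketogenic-alternating against chow-alternating, C1ra, C8b, C9, Cfb and Cfhr2, all lower and all hepatocyte-made, where 16.8% of all genes tested did not overlap. The counts were 5 of 30 against chow (C4bp and Cr1l higher, C8g, Cfhr2 and Mbl2 lower; 13.3% of all genes) and 1 of 31 against high-fat (Fcna, higher; 6.85%). They were 3 of 29 in high-fat against chow (C4bp and Masp2 higher, Mbl2 lower; 8.22%), 3 of 29 in chow-alternating against chow (C2, C4bp and Masp2, all higher; 8.48%) and 0 of 29 in chow-alternating against high-fat (3.02%). The shares of all genes count both directions together, and shares by direction were not computed. Taken in either direction, the counts were near those shares and are no result about complement.

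The macrophage-made sum ran in parallel with the markers of Kupffer cells across libraries. Their sum was 446, 353, 385 and 176 TPM in ketogenic-alternating, 164, 211, 175 and 228 in chow-alternating, 214, 178, 314 and 271 in high-fat, and 289, 148, 166 and 159 in chow libraries. The 8 Kupffer markers, Clec4f, Vsig4, Timd4, Cd5l, Marco, Adgre1, Csf1r and Cd68, summed to 341, 253, 298 and 92.7 TPM in ketogenic-alternating, 102, 122, 107 and 150.5 in chow-alternating, 127, 134, 259 and 201.6 in high-fat, and 245, 85.1, 79.4 and 95.9 in chow libraries. None of the 8 was at 0 in any library. In both sums ketogenic-alternating replicates 1, 2 and 3 were high, replicate 4 was low, and chow replicate 1 was above the other chow libraries. The part of these or other cells in the complement values was not tested. All 8 markers had a log2 fold change above 0 in ketogenic-alternating against chow-alternating (median 0.85, smallest limma adjusted p 0.1) and against chow (median 0.97, smallest limma adjusted p 0.142), and 7 of 8 against high-fat (median 0.35), and none changed. Markers of other non-hepatocyte cells went both ways. The 7 sinusoidal endothelial markers summed to 134 to 212 TPM in ketogenic-alternating, 85.6 to 127 in chow-alternating, 109 to 159 in high-fat and 97.7 to 180 TPM in chow libraries. In ketogenic-alternating against chow-alternating all 7 were above 0 (median 0.57), and Clec4g and Oit3 rose (limma adjusted p = 0.0418 and 0.0106). Of 8 stellate cell markers 7 were above 0 there (median 0.20, none changed), where the median over all genes was 0.19. Recruited macrophage markers had a median of 0.32 there (3 of 4 above 0). Medians were below 0 for markers of B and plasma cells (-0.29, 0 of 4 above 0) and neutrophils (-0.25, 1 of 3). They were also below 0 for markers of cholangiocytes (-0.10, 1 of 4) and of T and NK cells (-0.07, 1 of 2). The macrophage-made sum was 1.80% to 3.93% of the hepatocyte-made sum in ketogenic-alternating, 1.31% to 1.97% in chow-alternating, 1.68% to 2.52% in high-fat and 1.45% to 2.22% in chow libraries. In tissue RNA, more or fewer cells of a type and more or less RNA per cell cannot be told apart.

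**Figure D5:**
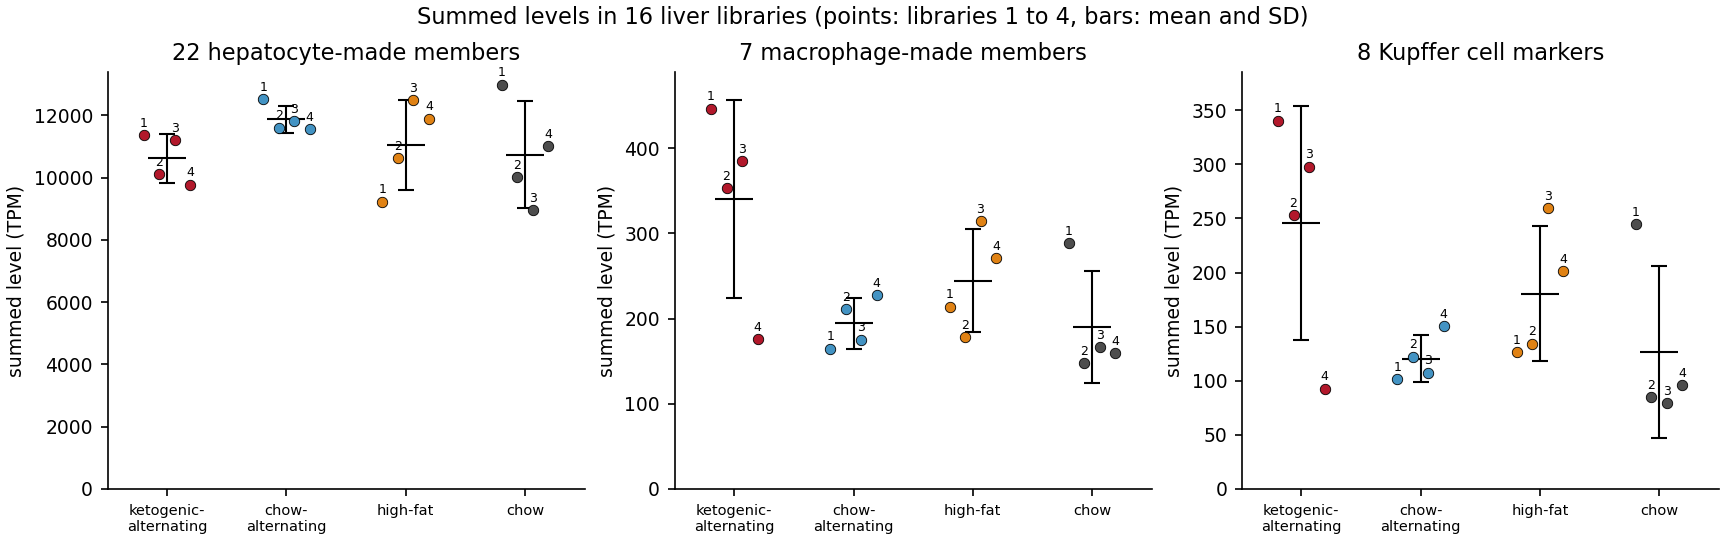
Summed TPM of the 22 hepatocyte-made and 7 macrophage-made complement genes and of 8 Kupffer cell markers, with 1 numbered point per library and bars for the mean and SD of 4 libraries. Ketogenic-alternating replicates 1 to 3 (353 to 446 TPM) exceed every other library in the macrophage-made sum, and replicate 4 (176 TPM) does not.

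Of 24 further complement genes found in the table, 15 to 18 were tested in each comparison and 1 changed, Cfd. Cfd encodes adipsin, or factor D, which cleaves factor B and so starts the alternative convertase, and it is best known as a product of fat cells. It had 12.8, 16.1, 42.0 and 27.5 TPM in ketogenic-alternating, 1.33, 0, 0.173 and 0.231 in chow-alternating, 1.88, 0.723, 0.848 and 3.34 in high-fat, and 0, 0, 0.436 and 0.447 in chow libraries. All ketogenic-alternating libraries were above all others. Cfd rose in ketogenic-alternating livers by 4.10 on the log2 scale against chow-alternating (SE 0.358, limma adjusted p = 3.58e-04), by 3.21 against high-fat (SE 0.375, limma adjusted p = 0.0088) and by 4.27 against chow (SE 0.321, limma adjusted p = 1.35e-04). Leaving out high-fat replicate 1 or 2 ended the call against high-fat (limma adjusted p = 0.0603 and 0.0759), as did applying no filter on low values (limma adjusted p = 0.261) and leaving out the libraries over 33% (3.04, limma adjusted p = 0.283). Genes of fat cells were looked up after this value was seen. Adiponectin (Adipoq), leptin (Lep), perilipin 1 (Plin1) and resistin (Retn) were at or under 0.0923 TPM in every ketogenic-alternating library, and Lep was at 0 in all 16. In the other groups the highest values were 0.921 TPM for Adipoq, 0.257 for Retn and 0.0548 for Plin1, all in high-fat replicate 1. Cidea, a lipid droplet gene related to Cidec, had 0.292, 0.494, 0.269 and 0 TPM in ketogenic-alternating libraries, against 0 in all chow-alternating, 0 to 0.929 in high-fat and 0 to 0.0631 TPM in chow libraries. Cidec, a lipid droplet gene of fat cells and fatty liver, had 70.9, 35.9, 21.3 and 26.2 TPM in ketogenic-alternating, against at most 12.9 TPM in any other library. The cell source of the Cfd transcripts was not tested.

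Acute phase genes encode plasma proteins whose synthesis in hepatocytes shifts with inflammation, and some complement genes are counted among them. Of 19 tested, 4 rose in high-fat against chow (Saa1, Saa2, Lcn2 and Serpina3n), where 1.06% of all genes changed. The same 4 rose in chow-alternating against chow, where 1.16% of all genes changed. Saa1 and Serpina3n rose and Orm1 fell in ketogenic-alternating against chow, where 3.67% of all genes rose and 1.33% fell. The chow libraries are the same in all 3. Saa1, serum amyloid A, averaged 284 ± 267 TPM in ketogenic-alternating, 598 ± 337 in chow-alternating and 333 ± 201.7 in high-fat, against 38.5 ± 18.8 TPM in chow livers (SD, n = 4 each). Orm1, an acid glycoprotein, was also lower in ketogenic-alternating, 706 ± 188 TPM, than in chow-alternating livers, 1374 ± 174 TPM (limma adjusted p = 0.0127). Among 19 coagulation genes, F11, coagulation factor XI, rose in all 3 comparisons with chow, at 43.8 ± 9.78 TPM in ketogenic-alternating, 38.9 ± 6.51 in chow-alternating and 56.1 ± 15.3 in high-fat, against 14.2 ± 3.87 TPM in chow livers (limma adjusted p = 0.00181, 0.00841 and 0.00557). These 3 comparisons share the chow libraries. Neither list had a member that changed in ketogenic-alternating or chow-alternating against high-fat.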

How the data were processed

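The deposited tables hold TPM per gene and per transcript. Per the series' design text and the submitters' processing notes, the authors trimmed reads, aligned them with HISAT2 to mm10 and quantified with RSEM 1.1.17 on Ensembl 96. The text names FPKM, but each deposited column sums to 1000000, which makes the values TPM. Gene positions came from GENCODE vM21 and promoters from RefSeq on GRCm38.p6.

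Each comparison used the 8 libraries of its 2 groups. On log2(TPM + 1), after dropping genes that reached 1 TPM in fewer than 4 of them, a moderated linear model with a mean-variance trend (limma 3.58.1, R 4.3.3) was run, with Benjamini-Hochberg adjustment over all genes. The same model was also run on simulated data in which genes were drawn independently, with no shift shared by the genes of a library. That run does not cover such shifts. Correlations used 100000 permutations. Alternatives changed the pseudocount, filter, scaling, weights, trend, block, fold limit and libraries.

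The members and lists were chosen with earlier results of these data known. Values of every library were to be given for members that changed, the 3 with the largest fold changes in each of the first 4 comparisons, the C1q genes and C3. Further members shown that way, the genes of fat cells and the Masp2 transcripts were chosen after their values were seen. TPM keeps no depth, so no counting interval is given.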

Additional observations from a re-analysis of the deposited data

Results flagged for a closer look

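In groups of 4 libraries, 1 library stood clearly apart from the other 3 in 13 of 140 sets checked. Chance gives about 1 in 20 for a single set. The sets share libraries and are not independent, so 13 of 140 cannot be read as an excess over chance. In ketogenic-alternating replicate 4, C3 (1363 TPM) and Cfp (11.7 TPM) were far below the others of the group. In chow replicate 1, C1qa (78.0 TPM), C1qb (66.7 TPM), Fcna (67.7 TPM), Mbl1 (227 TPM) and Cd55 (9.91 TPM) were far above the other chow libraries. In the summed Kupffer cell markers, ketogenic-alternating replicate 4 was the lowest of its group (92.7 TPM) and chow replicate 1 the highest of its group (245 TPM). The part of these cells was not tested.

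The other 6 were single values. Cd55 was high in ketogenic-alternating replicate 3 (10.5 TPM), C4b in chow-alternating replicate 1 (451 TPM) and C7 in chow-alternating replicate 3 (4.36 TPM). C5ar1 was low in high-fat replicate 1 (0.259 TPM). The ratio of C1qa to C1qb was low in high-fat replicate 2 (0.630), and the ratio of C1qa to C1qc was low in chow-alternating replicate 4 (1.31).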

How the results depend on the processing

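No complement gene changed under any alternative in ketogenic-alternating or chow-alternating against high-fat. In ketogenic-alternating against chow the count of 2 went to 0 with no filter, with no intensity trend, at a fold of at least 2, without libraries over 33%, and to 13 with array weights (23.4% of all genes), and was 0 to 10 when each replicate was left out. It was 10 without chow replicate 1 (14.8% of all genes) and 4 without ketogenic-alternating replicate 4 (4.85%). It was 1 without ketogenic-alternating replicate 1 (3.14%) or chow replicate 3 (3.71%). It was 0 without ketogenic-alternating replicates 2 or 3 or chow replicates 2 or 4. In ketogenic-alternating against chow-alternating the count of 0 was 7 under median-of-ratios scaling (2.78% of all genes) and 10 with array weights (23.9%). When each replicate was left out it was 0 to 7. It was 7 without ketogenic-alternating replicate 4 (23.0% of all genes), 2 without its replicate 1 (3.14%) and 1 without chow-alternating replicate 4 (2.95%). High-fat against chow gave 1 in the fit of all 16 libraries (3.64% of all genes) and under median-of-ratios scaling (1.49%). It gave 4 with array weights (5.23%). Chow-alternating against chow gave 1 in the fit of all 16 libraries (0.967% of all genes) and when rescaled without the 20 highest and mitochondrial genes (1.55%). It gave 3 under median-of-ratios scaling (1.85%) and with array weights (3.77%). When each replicate was left out it gave 0 to 5 (5 without chow replicate 1, 2.25% of all genes). The F test count of 2 was 6 under median-of-ratios scaling (5.52% of all genes) and 13 with array weights (23.3%). It was 1 with no trend (3.67%) and 0 without libraries over 33%. When each replicate was left out it was 0 to 5 (0 without chow replicate 2, 3 or 4, 5 without chow replicate 1, 4.60% of all genes). The causes were not tested.

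Replicate numbers did not pair the libraries: correlations of same-numbered deviations ran from -0.58 to 0.386, and in no comparison were all 4 pairs above 0.1. With the replicate block, 0 complement genes passed in ketogenic-alternating against chow and in the F test, and 1 in chow-alternating against chow (1.32% of all genes). C4bp and Mbl2 then had limma adjusted p of 0.0709 and 0.0754 in ketogenic-alternating against chow.

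Of the genes' fold changes, Masp1 in ketogenic-alternating against high-fat turned to -0.497 without libraries over 33%, and was -0.0786 to 0.907 when each replicate was left out, below 0 without high-fat replicate 1. C3 in chow-alternating against high-fat turned to -0.00725 without libraries over 33%. The macrophage-made median minus the hepatocyte-made median, 0.36 in ketogenic-alternating against high-fat, was 0.24 to 0.69 when each replicate was left out, and 0.06 in high-fat against chow became 0.40 without libraries over 33%. The relation of C1qa to C3 weakened to r = 0.160 under median-of-ratios scaling and 0.45 without libraries over 33%, and was 0.480 to 0.576 when each replicate was left out. That of C1qa to the 20-gene share was -0.464 under median-of-ratios scaling, and that of C3 to it -0.259 without libraries over 33%. Of all genes that changed in ketogenic-alternating against chow-alternating, 85.6% were higher, and 42.2% under median-of-ratios scaling. Against chow these were 73.3% and 53.4%. The shares of the long Masp2 transcript were recomputed under alternatives chosen after seeing the data, and no difference between groups moved by more than 1 SD.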
